A study of Homo sapiens with 2 samples.

Results

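Mucins and trefoil factors are the proteins that build and stabilise mucus, and 9 of their genes were followed in PLC8024 cells with and without MAEL. The 9 genes are MUC1, MUC2, MUC5AC, MUC5B, MUC13, MUC20, TFF1, TFF2 and TFF3, out of 58735 genes in the count table. They were picked by name after read counts of the same pair of libraries had been seen, so the differences given for them here describe the choice and are not tested. PLC8024, also called PLC/PRF/5 and labelled as Alexander cells, is an epithelial hepatoma line from human liver. The study asked what loss of MAEL does to stem-cell-like properties and sorafenib resistance of liver cancer cells. RNA sequencing covered 1 library of untreated wild type cells (MAEL WT) and 1 library of MAEL knockout cells (MAEL KO). The knockout was made with plasmids carrying both the sgRNA and Cas9, and sorted cells were grown on as single clones. With 1 library for each genotype, the knockout, the choice of clone and the preparation of the library cannot be told apart.

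MAEL, the targeted gene (ENSG00000143194, chromosome 1 of GRCh38, 166975582 to 167022214, plus strand), had 1 count in MAEL WT and 0 in MAEL KO. Both values lie at or under 3 counts, the floor used here, so the labels could not be checked by this transcript. The libraries held 19904136 and 20833332 counts, and 3 counts correspond to 0.151 and 0.144 CPM (counts of a gene scaled to a common library total). Mitochondrial genes took 4.42% and 4.95% of the counts. Some hepatocyte transcripts were well counted in both libraries, with 65436 and 72635 counts of TF (transferrin) and 80091 and 135805 of APOB. Others were scarce in MAEL WT, with 59 counts of ALB (albumin), 20 of TTR and 1 of HP.

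Mucins are long glycoproteins whose central stretch of serine, threonine and proline is covered with O-linked sugars. Gel-forming mucins (MUC2, MUC5AC, MUC5B) are secreted and join through cysteine-rich ends into the net of mucus, with MUC2 the main one of intestinal goblet cells and MUC5AC of the stomach surface. Membrane mucins (MUC1, MUC13, MUC20) stay anchored in the apical surface of epithelial cells. Trefoil factors are small secreted peptides folded around paired cysteines, released together with mucins, TFF1 and TFF2 chiefly in the stomach and TFF3 chiefly in the intestine. Hepatocytes are not mucus-producing cells, whereas the epithelium of bile ducts and glands makes several mucins.

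Repeated units of the MUC2, MUC1 and MUC20 transcripts are shown because such repeats make short reads from them hard to place. Each unit was read from the longest GENCODE 29 transcript of its gene, in the sense direction. Capitals are not used in this set.
MUC2 unit of 69 bases: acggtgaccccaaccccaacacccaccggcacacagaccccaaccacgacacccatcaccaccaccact
MUC1 unit of 60 bases: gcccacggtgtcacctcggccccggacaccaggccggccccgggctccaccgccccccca
MUC20 unit of 57 bases: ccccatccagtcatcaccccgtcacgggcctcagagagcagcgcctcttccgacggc
The MUC1 unit occurred 19 times without a mismatch in a transcript of 4170 bases, and the MUC20 unit 10 times in a transcript of 2842 bases. The MUC2 unit occurred 2 times without a mismatch in 12667 bases, although windows that match the sequence 1 unit further on made up 29.6% of that transcript. GENCODE 29 gives no coding region for this MUC2 transcript. Windows that match 1 unit further on made up 10.9% of the longest MUC5AC transcript and 1.62% of that of MUC5B, whose units are not shown. They made up 1.39% of that of MUC13, for which no unit was read.

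Of the 9 genes, 8 had at least 10 counts in at least 1 library, and 5 of these 8 were lower in MAEL KO past the threshold while none was higher. The threshold was a log2 fold change of 2, which is a 4-fold difference, taken on TMM-normalized counts with 1 added to each. Among all 17887 genes with that many counts, 5.64% were lower past the threshold (1008 genes) and 2.16% higher (387 genes). Scaled by total counts alone, 1309 genes were lower and 269 higher. The genes below the threshold were MUC2, TFF1, TFF2, MUC5AC and MUC20, those between the thresholds were MUC1, MUC5B and MUC13, and TFF3 had too few counts. The median log2 fold change of the 8 genes was -3.93, against -0.04 over all 17887. TFF1, TFF2, MUC5AC and MUC20 passed the count filter through the MAEL WT library only. With at least 100 counts required in either library, MUC1, MUC2, MUC13 and TFF1 remained, and 2 were lower, MUC2 and TFF1. Of all 12023 genes kept by that filter, 283 were lower and 185 higher. The nearest gene beyond the threshold was MUC20 at -3.80, with a counting interval that reaches up to -2.11. Short of it, MUC13 at 0.88 was nearest on the higher side and MUC5B at -0.63 on the lower side.

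**Figure D1:**
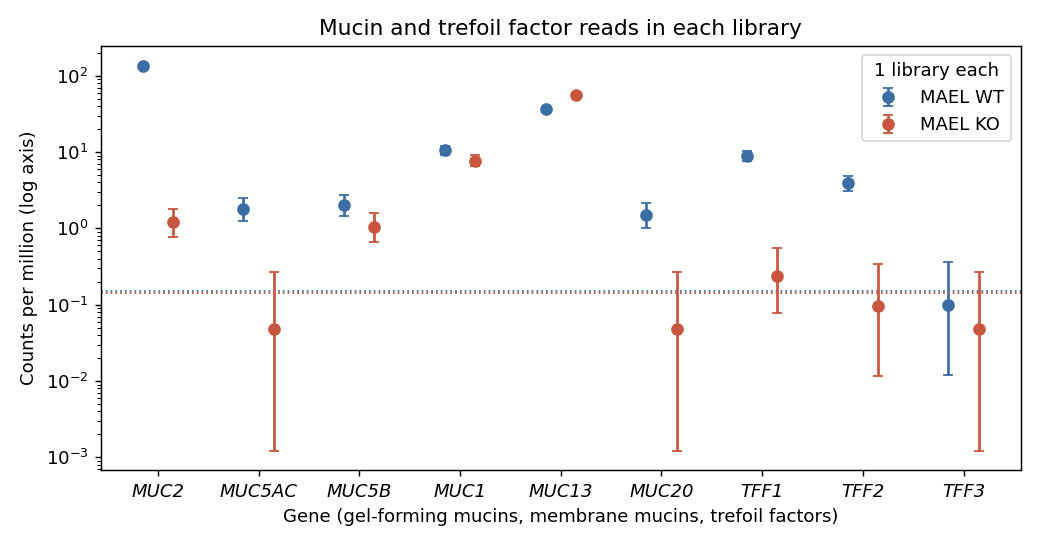
Level of each of the 9 genes in CPM (log axis) in the MAEL WT and MAEL KO libraries, 1 point for each library, with exact Poisson intervals at 95% for counting error and dotted lines at 3 counts. MUC2 went from 132 to 1.20 CPM while MUC13 went from 36.5 to 55.7 CPM.

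MUC2 (ENSG00000198788) occupies 1074875 to 1110511 of chromosome 11 (GRCh38, plus strand) and has at most 49 exons in a transcript. There were 2631 counts in MAEL WT and 25 in MAEL KO. This was 132 CPM (95% exact Poisson interval 127 to 137) against 1.20 CPM (0.777 to 1.77). The normalized level was 91.0-fold lower in MAEL KO, with an exact interval of 61.5 to 141-fold from the share of counts that fell in each library. Such intervals hold the counting error alone, because 1 library per genotype gives no spread between replicates. Without molecular identifiers several reads may stem from 1 molecule, so the counting error itself may be larger. Whether fewer cells carried MUC2 RNA or each cell carried less cannot be told apart in RNA from whole cultures.

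The log2 fold change of MUC2, -6.46 (interval -7.14 to -5.94), was the 7th lowest among the 17887 genes past the count filter. Among the 4981 genes with at least 1000 counts in MAEL WT, 2 were at or below this value, MUC2 itself and CAPN8, a calpain known from gastric mucous cells. Lower values were rarer among well counted genes. Of the 4774 genes with 1000 to 10000 counts in MAEL WT, 1.11% were lower past the threshold, against 3.32% of the 6767 genes with 100 to 1000 counts and 13.1% of the 5533 genes with 10 to 100. MUC2 belongs to the first of these classes, TFF1, MUC1 and MUC13 to the second, and TFF2, MUC5AC, MUC5B and MUC20 to the third. Of these, MUC1, MUC13 and MUC5B were not lower past the threshold.

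MUC5AC (ENSG00000215182, chromosome 11, 1157953 to 1201138, plus strand, 49 exons) is the gel-forming mucin of gastric and airway surface cells. It had 36 counts in MAEL WT and 1 in MAEL KO, a ratio of 31.1 with a counting interval of 5.24 to 1263. MUC5B (ENSG00000117983, chromosome 11, 1223066 to 1262172, plus strand) is the gel-forming mucin of airway and salivary glands and gallbladder. It had 40 counts in MAEL WT and 22 in MAEL KO. Its log2 fold change of -0.63 had an interval from -1.47 to 0.13, which holds 0 with TMM scaling. With scaling by total counts alone the value was -0.90. MUC2, MUC5AC and MUC5B thus stand side by side on the same strand with values of -6.46, -4.06 and -0.63, and the interval of MUC5B overlaps neither of the other two.

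MUC2, MUC5AC, MUC5B and the further gel-forming mucins MUC6 and MUC19 together had 2724 counts in MAEL WT and 59 in MAEL KO. MUC2 made up 96.6% of the first sum and 42.4% of the second. Gel-forming mucin RNA in MAEL WT was thus nearly all MUC2.

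**Figure D2:**
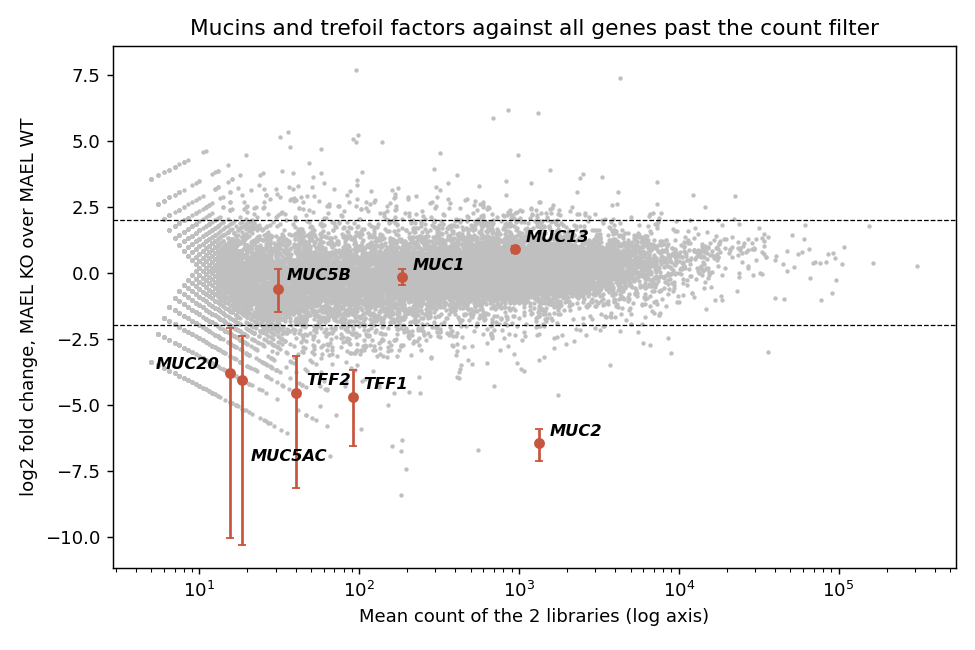
Log2 fold change of MAEL KO over MAEL WT against the mean count of both libraries (log axis) for the 17887 genes past the count filter in grey and for the 8 mucin and trefoil genes in red, whose bars are 95% counting intervals of the ratio without the added count. Dashed lines mark the threshold on both sides, and MUC2 lies at -6.46 with a narrow interval while MUC5AC and MUC20 have intervals that reach below -10.

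Among the membrane mucins, MUC13 had the most counts. MUC13 (ENSG00000173702, chromosome 3, 124905442 to 124953819, minus strand) is a mucin of the intestinal and gastric surface with a cytoplasmic tail. It had 727 counts in MAEL WT and 1161 in MAEL KO, or 36.5 CPM (33.9 to 39.3) against 55.7 CPM (52.6 to 59.0). Its log2 fold change was 0.88 (0.75 to 1.02), which is 1.85-fold and short of the threshold. With scaling by total counts alone it was 0.61.

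MUC1 (ENSG00000185499, chromosome 1, 155185824 to 155192916, minus strand) is the membrane mucin of most simple epithelia, with 29 annotated transcripts. It had 209 counts in MAEL WT and 161 in MAEL KO. With TMM scaling the log2 fold change of -0.17 had an interval of -0.47 to 0.14, which holds 0. With scaling by total counts alone the value was -0.44, so whether MUC1 differed depends on the scaling as well as on depth.

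MUC20 (ENSG00000176945, chromosome 3, 195720882 to 195741123, plus strand) is a membrane mucin known to bind the receptor MET. It had 30 counts in MAEL WT and 1 in MAEL KO, a ratio of 25.9 with a counting interval of 4.31 to 1058. This count is uncertain, because 58.1% of the windows of 100 bases in its longest transcript also occur in transcripts of MUC20-OT1 or the pseudogene MUC20P1. MUC20-OT1, a lincRNA that overlaps MUC20 on the same strand, had 477 and 240 counts. MUC20P1 had 15 counts in MAEL WT and 0 in MAEL KO. How reads that fit several genes were counted is not given in the sources used here.

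The summed level of the membrane mucins was somewhat higher in MAEL KO, a rise carried by MUC13. Over 11 genes, with MUC3A, MUC4, MUC12, MUC15, MUC16, MUC17, MUC21 and MUC22 beside the 3 above, they had 60.2 CPM in MAEL WT and 67.7 CPM in MAEL KO before TMM scaling, and 1117 and 1521 normalized counts after it, which is 1.36-fold. MUC13 made up 60.7% of their counts in MAEL WT and 82.3% in MAEL KO. Apart from MUC13, only MUC3A (44 and 46 counts) had more counts in MAEL KO, and MUC15 had fewer.

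The trefoil genes lie side by side on the minus strand of chromosome 21. TFF1 (ENSG00000160182, 42362282 to 42366594), the gastric trefoil peptide released with MUC5AC, had 177 counts in MAEL WT and 5 in MAEL KO. It was 30.6-fold lower in MAEL KO, with an interval of 12.9 to 95.4-fold, and its log2 fold change of -4.70 was the 43rd lowest of all. TFF2 (ENSG00000160181, 42346357 to 42351128), the peptide of mucous neck cells that goes with MUC6, had 78 and 2 counts, a ratio of 33.7 with a counting interval of 9.02 to 283. TFF3 (ENSG00000160180, 42311667 to 42315651), the peptide of intestinal goblet cells, had 2 and 1 counts. TFF3 was thus under the floor in both libraries and no ratio was taken. Summed over the cluster, trefoil RNA went from 257 counts to 8.

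Levels of different genes can be set side by side only per length, for which the deposited FPKM values (fragments scaled by gene length and library size) were used. The gene length can exceed that of any transcript, as for MUC20 with 4249 bases against 2842 in its longest transcript. Windows of 100 bases that recur inside the same longest transcript made up 32.5% for MUC1 and 13.9% for MUC2. They made up 0% for MUC13, TFF1, TFF2 and TFF3. Whether such repeats changed the levels was not tested, and the counting intervals below do not cover it. In MAEL WT, TFF1 stood first at 14.7 FPKM (12.6 to 17.0). MUC13 and MUC2 followed at 9.50 each, with intervals of 8.82 to 10.2 and 9.14 to 9.87 that overlap. TFF2 had 4.30 FPKM (3.40 to 5.36), MUC1 2.03 (1.76 to 2.32) and MUC20 0.323 (0.218 to 0.461). MUC5B at 0.0983, MUC5AC at 0.0943 and TFF3 at 0.0783 came last, with intervals that overlap.

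In MAEL KO, MUC13 stood first at 17.5 FPKM (16.5 to 18.5) and MUC1 second at 1.80 (1.53 to 2.10). TFF1 was at 0.479 (0.155 to 1.12) and TFF2 at 0.127 (0.0154 to 0.459). MUC2 was at 0.104 (0.0674 to 0.154), ahead of MUC5B at 0.0624 (0.0391 to 0.0945). From TFF1 downwards each gene's interval overlapped that of the next. Of the counts of all 9 genes, 3930 in MAEL WT and 1379 in MAEL KO, MUC2 held 66.9% and then 1.81%, while MUC13 held 18.5% and then 84.2%.

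The rest of the mucin family was counted in the same way, over 16 genes. Of these, 7 had enough counts, 2 were lower past the threshold and none was higher, with a median log2 fold change of -0.35. The count of 2 was 1 with FPKM ratios, with 5 added or with at least 100 counts. MUC15, a membrane mucin of placenta and other epithelia, had 151 counts in MAEL WT and 26 in MAEL KO, a log2 fold change of -2.29 (-2.99 to -1.72). MUC4, a large membrane mucin that binds ERBB2 and neighbours MUC20, had 20 and 3 counts, a log2 fold change of -2.21 (-4.92 to -0.77). Both intervals extend above -2.

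The other 5 lay between the thresholds. OVGP1, the oviduct mucin, had 87 and 23 counts, a log2 fold change of -1.67. CD164, a small sialomucin found on many cells, had 5278 and 4100 counts, a log2 fold change of -0.15. MUC3A had 44 and 46 counts, MUC16 had 12 and 9, and MUC6, the mucin of gastric glands, had 15 and 10. The intervals of these 3 mucins hold 0. MUC7, MUC17, MUC21, MUCL1 and EMCN had no count in either library, and MUC12, MUC19, MUC22 and MUCL3 had at most 5 in either library.

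Other products of goblet cells and the machinery that packs and releases mucin granules made up a list of 24 genes. Of 13 with enough counts, 1 was lower past the threshold and 1 higher, and the median log2 fold change was -1.15. Scaled by total counts alone, 4 genes of this list passed the threshold in place of 2. RAB27B, a small GTPase of secretory granules, was the lower one, with 889 counts in MAEL WT and 165 in MAEL KO and a log2 fold change of -2.21 (-2.47 to -1.98). ZG16, a lectin-like protein of goblet cell granules, was the higher one, with 7 and 48 counts and a log2 fold change of 2.81 (1.84 to 4.38).

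AGR2, the disulfide isomerase that goblet cells need to fold MUC2, had the most counts on this list, 8186 in MAEL WT and 1836 in MAEL KO. Its log2 fold change of -1.95 (-2.02 to -1.87) was just short of the threshold. FCGBP, a mucus protein that binds MUC2, had 258 and 60 counts, a log2 fold change of -1.88. BCAS1, a gene known from brain and from goblet cells of the gut, had 1836 and 534 counts, a log2 fold change of -1.57. ERN2, the stress sensor of mucous epithelia, had 20 and 6 counts.

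VAMP8, a SNARE of granule release, had 974 and 1020 counts, and its log2 fold change was 0.28. BEST2 had 5 and 12 counts and TPSG1 had 5 and 11, with intervals that hold 0. CLCA1, RETNLB, ITLN1 and DMBT1, which mark goblet or other mucosal secretory cells, had no count in either library.

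The enzymes that start and extend mucin-type O-linked sugars made up a list of 29 genes. Of 19 with enough counts, 2 were lower past the threshold and none was higher, with a median log2 fold change of 0.02. With at least 100 counts required, 0 passed. GALNT5, which starts chains, had 19 counts in MAEL WT and 0 in MAEL KO, at least 5.47-fold lower when set against the floor of 3 counts. GALNT15 had 27 counts and 1, a ratio with a wide interval whose log2 form runs from -9.90 to -1.94.

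GCNT3, the branching enzyme of mucous epithelia, had 2095 and 583 counts, a log2 fold change of -1.63 (-1.77 to -1.50). GALNTL6 had 36 and 10 counts, a log2 fold change of -1.55. Several enzymes of the pathway had more counts in MAEL KO without passing the threshold. GALNT1, which starts chains in most tissues, had 1578 and 2224 counts, a log2 fold change of 0.71. C1GALT1C1, the chaperone of core 1 synthesis, had 642 and 860 counts, a log2 fold change of 0.63. GCNT4 had 143 and 258 counts and GALNT18 27 and 63, with log2 fold changes of 1.06 and 1.40.

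Transcription factors known to act on mucin and goblet cell genes made up a list of 27 genes, 20 of them with enough counts. Again 2 were lower past the threshold and none was higher, with a median of 0.03. CREB3L1, a membrane-bound factor of secretory cells, had 418 counts in MAEL WT and 53 in MAEL KO, a log2 fold change of -2.75 (-3.21 to -2.35). KLF4, a factor of goblet cell maturation, had 1160 and 190 counts, a log2 fold change of -2.39 (-2.63 to -2.18). Both intervals lie beyond the threshold.

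EHF had 27 and 9 counts and GFI1, a factor of the secretory lineage, 138 and 53, with log2 fold changes of -1.29 and -1.16. CDX2, the intestinal homeobox factor known to act on the MUC2 promoter, had 191 and 286 counts, a log2 fold change of 0.79 (0.52 to 1.06). HNF4A, a factor of hepatocytes and intestine, had 2816 and 5391 counts, a log2 fold change of 1.15. KLF5 had 1496 and 2708 counts and HES1 502 and 757, with log2 fold changes of 1.07 and 0.80. ATOH1, which starts the goblet cell lineage in the gut, had 1 and 0 counts, and SPDEF, which completes it, had 6 in each library.

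**Figure D3:**
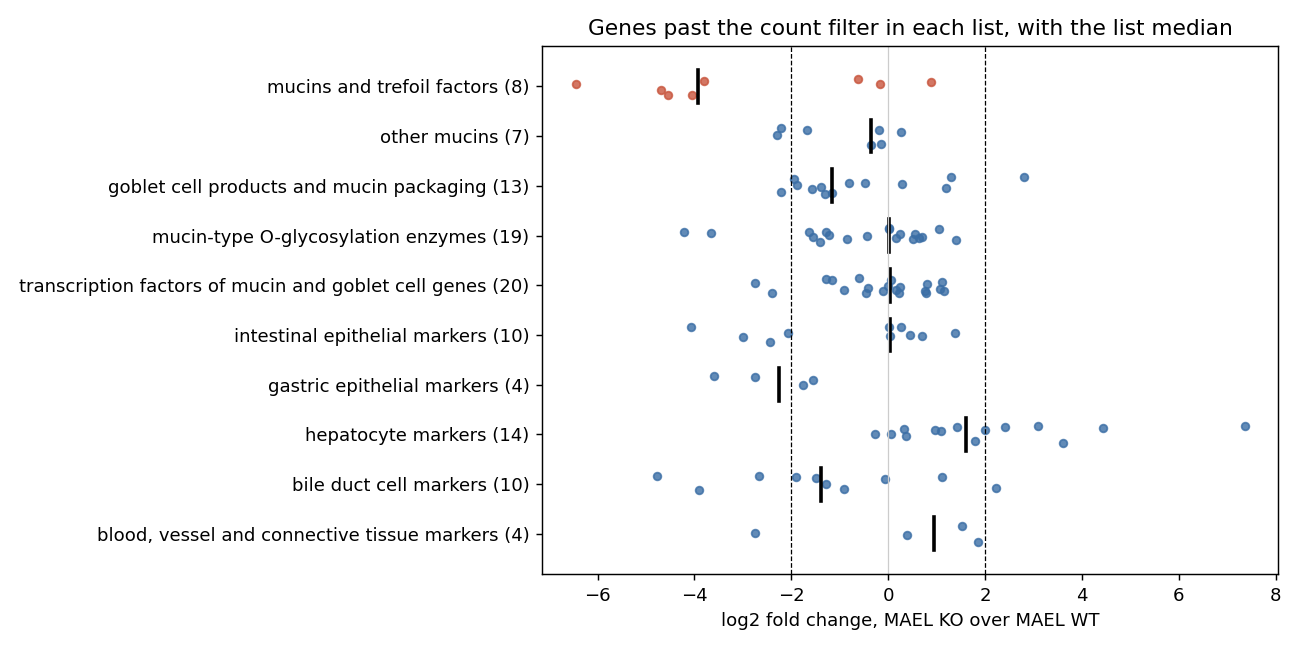
Log2 fold change of MAEL KO over MAEL WT for each gene past the count filter, 1 point a gene, in the mucin and trefoil genes and in the lists named on the other axis, with the median of each list as a vertical bar and dashed lines at the threshold on both sides. The medians of the O-glycosylation enzymes (0.02) and transcription factors (0.03) lie near that of all genes (-0.04), whereas the median of goblet cell products is -1.15, and genes at 0 in MAEL KO are drawn with the added count, not at a bound.

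Marker lists of the cell types that could carry mucin RNA were looked at beside these values. Of 20 intestinal epithelial markers, 10 had enough counts, and 4 were lower past the threshold and none higher. CDH17, the liver-intestine cadherin, had 756 and 120 counts, a log2 fold change of -2.44, KRT20 had 26 and 2, CEACAM6 had 18 and 3, and CEACAM5 had 17 and 0. VIL1, the microvillus protein villin, had 1190 and 1672 counts, GUCY2C 485 and 572, and LGR5 10 and 24. Of the 10, 6 had values above 0, and the median was 0.03. The summed level was 172 CPM in MAEL WT and 154 CPM in MAEL KO before TMM scaling, and 3200 and 3469 normalized counts after it, so its direction depended on the scaling.

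Of 14 gastric epithelial markers in the table, 4 had enough counts and 2 were lower past the threshold, SOX2 with 40 and 2 counts and CLDN18 with 14 and 1. VSIG1 had 60 and 17 counts and TFCP2L1 22 and 5. Their sum was 7.74 CPM in MAEL WT and 1.87 CPM in MAEL KO, and the defining genes GKN1, GKN2, PGC, LIPF, CTSE and GIF were at 0 in both libraries. Of 12 bile duct cell markers, 10 had enough counts, 3 were lower past the threshold and 1 higher. KRT7 had 60 counts and 1, EPCAM 15 and 0, and KRT19 13 and 1, whereas ANXA4 had 2644 and 10627. The median of the 10 was -1.39 and 8 of them lay below 0. The sum over the list, 232 CPM in MAEL WT and 592 CPM in MAEL KO, rested on ANXA4, without which it was 99.6 CPM and 81.7 CPM, or 1848 and 1836 normalized counts.

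Of 15 hepatocyte markers, 14 had enough counts, none was lower past the threshold and 5 were higher, with a median of 1.60. ALB (albumin) had 59 and 8550 counts, APOA1 419 and 4400, AHSG 559 and 2590, TTR 20 and 155, and HP 1 and 38. At the other end stood CPS1 with 111749 and 80231 counts, TAT with 162 and 146, FGG with 42872 and 46697, and TF. The sum was 20840 CPM in MAEL WT and 31857 CPM in MAEL KO. SERPINA1, with 78162 and 232891 counts, gave the largest part of the rise, ahead of APOB and FGB (30817 and 71023 counts). The 5 genes past the threshold added far fewer counts to it. Of the 14 genes, 13 had values above 0. A link between this sum and the MUC2 counts was not tested.

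Of 14 markers of blood, vessel and connective tissue, 4 had enough counts and 1 was lower past the threshold, COL1A1 with 92 and 11 counts. The other 3 had values above 0 without passing it, PECAM1 with 348 and 392 counts, COL3A1 with 54 and 136 and CDH5 with 4 and 15. The median of the 4 was 0.95. PTPRC had 3 and 0 counts, VWF 1 and 0, and CD3E none in either library. The part that a change in the mixture of cells had in the mucin and trefoil values was not tested.

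The genes around each mucin and trefoil gene were counted next. Within 100 kb of MUC2 lie 4 other genes, all with enough counts. AP2A2, a subunit of the clathrin adaptor, had 1324 and 1039 counts, a log2 fold change of -0.14, and MUC6 had a log2 fold change of -0.35. The lincRNA AC139749.1 had 18 and 3 counts and MUC5AC is described above. TOLLIP, on the far side of MUC5B, had 1836 and 1586 counts, a log2 fold change of -0.00. AP2A2 and TOLLIP, at either end of this stretch, thus stayed between the thresholds while MUC2 and MUC5AC lay below them.

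Within 1000 kb of MUC2, a width chosen after the values were seen, 72 genes had enough counts, 5 were lower past the threshold and 4 higher, with a median of -0.15. The 5 lower ones were MUC5AC, AC139749.1, KRTAP5-1 (22 and 3 counts), KRTAP5-AS1 (24 and 3) and AC068580.1 (25 and 2). The 4 higher ones were MIR210HG (57 and 350 counts), H19 (2 and 18), SYT8 (1 and 12) and AP006621.4 (1 and 11). KRTAP5-1 and KRTAP5-AS1 overlap on opposite strands, and whether the counting used strand is not given in the sources used here.

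Around the trefoil cluster, ABCG1, a cholesterol exporter, had 32 counts in MAEL WT and 0 in MAEL KO, at least 9.22-fold lower against the floor. Within 1000 kb of TFF1, 23 other genes had enough counts. Of these, 4 were lower past the threshold, TFF2, ABCG1 and the interferon-induced MX1 (204 and 2 counts) and MX2 (69 and 5), and LINC01671 (37 and 209) was higher. The median of the 23 was -0.34.

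**Figure D4:**
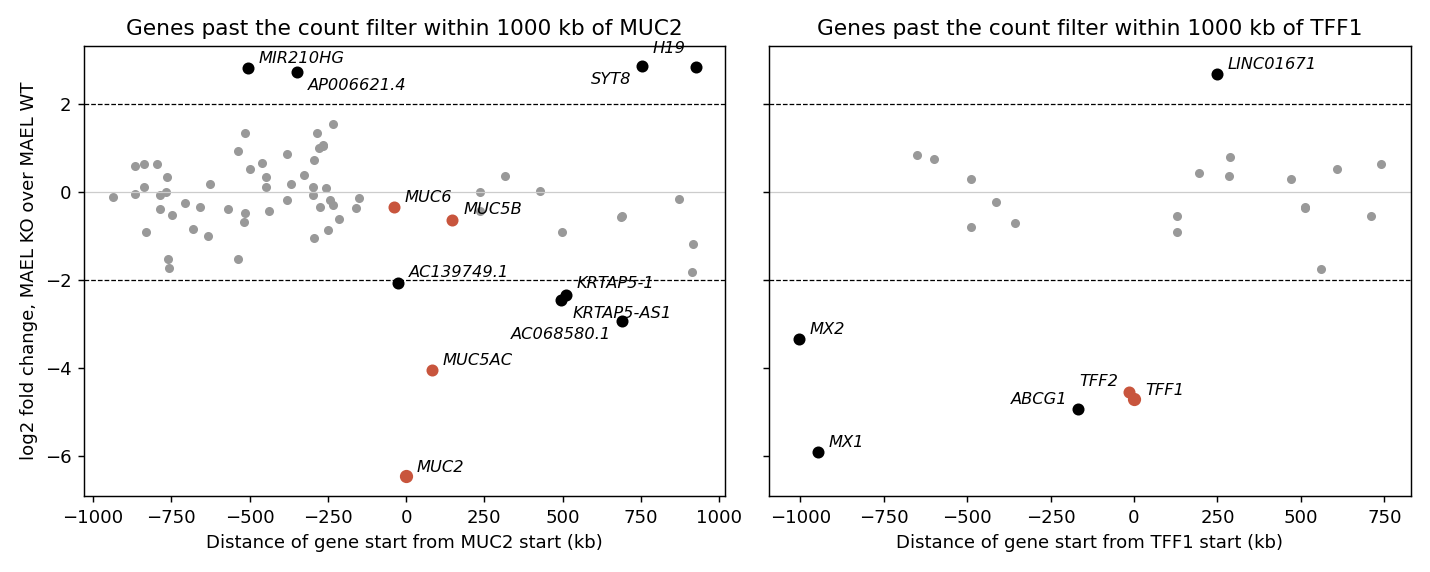
Log2 fold change of MAEL KO over MAEL WT for genes past the count filter against the distance of their start from that of MUC2 (left) and TFF1 (right) in kb, with mucin and trefoil genes in red, other genes past the threshold in black and named, and the rest in grey. Dashed lines mark the threshold on both sides, and ABCG1, at 0 in MAEL KO, is drawn with the added count. Between MUC2 (-6.46) and MUC6 (-0.35, counting interval -1.69 to 0.88) lies the lincRNA AC139749.1 (-2.07).

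The membrane mucins lie on chromosomes 1 and 3. Of 17 genes with enough counts within 100 kb of MUC1, none passed the threshold, and values ran from -1.50 for the pseudogene GBAP1 to 1.78 for PKLR, the pyruvate kinase of liver. EFNA1 had 422 and 1044 counts, a log2 fold change of 1.51. Beside MUC13, ITGB5 had 5142 and 5759 counts and HEG1 607 and 387, with log2 fold changes of 0.37 and -0.44. Of 5 genes with enough counts near MUC20, only MUC4 passed the threshold, and the others ran from -1.01 to -0.43. Within 1000 kb, 4 of 67 genes were lower past the threshold and 1 higher around MUC1, 3 of 30 lower and 2 higher around MUC20, and none of 13 in either direction around MUC13. The differences between these neighbourhoods were not tested.

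The 3 protein-coding genes closest to MUC2 in their levels in both libraries, by Euclidean distance of log2(CPM + 1) over the 2 libraries, were FAM129A, CAPN8 and INHBE. FAM129A, also named NIBAN1, a gene induced by cell stress, had 1338 and 58 counts at a distance of 1.24. CAPN8 had 1099 and 8 counts at 1.41, and INHBE, a liver-secreted inhibin subunit, had 3385 and 116 counts at 1.62. With only 2 libraries this likeness describes 2 levels and nothing more.

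Promoter sequence was at hand for MUC1, MUC2 and MUC13, 3 of the 9 genes, from RefSeq on GRCh38.p14. The 250 bases before 1 start of each gene are shown because these genes differ in their values, at -0.17, -6.46 and 0.88. Capitals mark matches to 7 short motifs searched on both strands.
MUC2, chr11:1074624-1074873, plus strand: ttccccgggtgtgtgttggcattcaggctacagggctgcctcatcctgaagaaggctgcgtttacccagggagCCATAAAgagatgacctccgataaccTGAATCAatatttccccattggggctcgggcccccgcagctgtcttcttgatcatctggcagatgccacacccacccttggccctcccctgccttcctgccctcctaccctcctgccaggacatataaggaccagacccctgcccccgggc
MUC1, chr1:155192916-155193165, minus strand: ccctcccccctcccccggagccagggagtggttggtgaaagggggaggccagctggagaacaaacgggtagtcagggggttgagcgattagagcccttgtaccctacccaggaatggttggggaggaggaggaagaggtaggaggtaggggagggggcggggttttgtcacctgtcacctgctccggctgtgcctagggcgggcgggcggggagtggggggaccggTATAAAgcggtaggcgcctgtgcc
MUC13, chr3:124934752-124935001, minus strand: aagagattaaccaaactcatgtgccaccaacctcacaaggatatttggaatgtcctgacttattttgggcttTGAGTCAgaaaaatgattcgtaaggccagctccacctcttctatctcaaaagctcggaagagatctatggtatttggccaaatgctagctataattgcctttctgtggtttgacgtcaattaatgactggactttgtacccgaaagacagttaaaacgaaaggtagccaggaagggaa

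The MUC2 window held the CDX motif TTTATGG on its reverse strand, from position -177 counted back from the start of transcription. This motif was in 2.3% of 35116 RefSeq promoter windows of this length. The MUC2 window also held the AP-1 motif TGANTCA at -151, which was in 6.57% of the windows. The MUC1 window held TATAAA, the TATA box, at -24, which was in 10.7% of the windows. RefSeq gives 2 starts for MUC1, and counted from the one not shown the match lies at -30. The MUC13 window held an AP-1 match at -178, and its start lies inside the span that the count table lists for MUC13. The forkhead motif TGTTTAC, in 2.98% of all windows, had no match in these 3. The same was true of the C/EBP motif TTGCNNAA, in 9.05% of all windows. Neither the GATA motif AGATAA, in 9.17%, nor a motif like that of NF-kB, in 1.73%, was found in them. No match overlapped another in the 3 windows. Their GC content was 59.6% for MUC2, 66% for MUC1 and 41.6% for MUC13, against a median of 58%.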

How the data were processed

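RNA of MAEL WT and MAEL KO PLC8024 cells was sequenced by the authors, 1 library each. Raw read counts for each gene, in whole numbers, and FPKM values were deposited by the authors in separate tables. The submitters' processing notes name HISAT2 2.0.5, featureCounts 1.5.0-p3 and the build hg19. The deposited coordinates, however, equal those of GENCODE 29 on GRCh38 for 58631 of 58735 genes, so GRCh38 is given here. The deposited FPKM values equal counts divided by gene length and by a library size 1.09889 and 0.910 times the total. Settings for strand and for reads that fit several genes are not given in the sources used here.

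TMM factors came from edgeR 4.0.16 in R 4.3.3, with DESeq2 1.42.0 as an alternative, and normalized counts refer to the mean of both effective library sizes. The log2 fold change is MAEL KO over MAEL WT with 1 added. A gene was kept where either library had 10 counts or more, and the threshold of 2 is the fold threshold of the study. A gene at 0 counts in 1 library was set against 3 counts. Intervals at 95% are exact Clopper-Pearson intervals of the MAEL KO share of a gene's counts, or exact Poisson intervals of a level, and cover counting error only. No p-value is given, because 1 library per genotype leaves no replicate error. The calculations used Python 3.11.15 with NumPy 2.4.6, SciPy 1.17.1, pandas 2.3.3 and matplotlib 3.10.9, and were tested on simulated data.

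The 9 genes, the gene lists and the rule for named genes were chosen with earlier results of these data known. Named are the 9 genes, MAEL, the other mucins with enough counts, up to 4 genes at each end and any gene past the threshold of each list, genes within 100 kb, and the 3 genes closest to MUC2. Others named were chosen after their values were seen. The lists overlap, and SOX9 for example is on those of transcription factors and of bile duct markers. Some items that the rule covers are not reported here. Windows of 100 bases were compared between GENCODE 29 transcripts. Promoters are from RefSeq on GRCh38.p14.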

Additional observations from a re-analysis of the deposited data

How the results depend on the processing

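No paired analysis was possible because each genotype had 1 library, and for the same reason no library could be left out. The alternatives were DESeq2 size factors, total counts, FPKM ratios with 0.01 added, 0.1 or 5 as the added count, no count filter or at least 100 counts, a log2 threshold of 1 and protein-coding genes alone. Of 40 values of single mucin and trefoil genes, 39 stayed within their counting interval, and 1, MUC13 with total counts (0.61), did not, none changing sign. MUC2 ranged from -6.73 to -6.26, TFF1 from -4.95 to -4.03, TFF2 from -5.01 to -3.44, MUC5AC from -4.84 to -2.67 and MUC20 from -4.57 to -2.44. Single genes outside these 9 were not run under the alternatives. Of 73 alternative values of counts past the threshold and of the median of the mucin and trefoil genes, 55 stayed close (within 1.5 times for a count, within the spread of the 8 genes for the median) and 18 did not, and that median ranged from -4.70 to -2.43. Total counts moved the median of all genes from -0.04 to -0.31.

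The count of 5 lower genes among the mucin and trefoil genes became 2 with at least 100 counts, since fewer were then included, and was 5 under the other settings run. Over all genes, 513 were lower and 250 higher with 5 added, 1773 and 1029 with no filter, 283 and 185 when 100 counts were required, and a threshold of 1 gave 2951 and 1827. The other mucins past the threshold, 2 as reported, were 1 with FPKM ratios, 1 with 5 added and 1 with at least 100 counts. The goblet cell products, 2 as reported, were 4 with total counts, 1 with at least 100 counts and 10 at a threshold of 1. The O-glycosylation enzymes were 0 with at least 100 counts and 9 at a threshold of 1, and the transcription factors 7 at that threshold. These changes follow from the lower threshold, the larger added count or the smaller or larger number of genes included, except those with total counts and with FPKM ratios, for which the cause was not tested. With 1 and 2 counts in MAEL KO, the size of the differences in MUC5AC, MUC20 and TFF2 is limited by depth.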
